A study of Mus musculus with 60 samples.

Results

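The members described here are the streptococci and other relatives of the lactobacilli in the mouse mouth, lung, colon and stool. They were chosen by lineage: each sequence feature placed in the order Lactobacillales but outside the family Lactobacillaceae, and each feature placed in Gemella. A feature is a distinct 16S rRNA gene sequence with its own row of counts. The rule took 267 of 8574 features, under 16 of 567 genus labels. They held 1124582 counts, which is 6.59% of all prokaryote counts. Streptococcus gave 155 of the features and 94.3% of the member counts. Features that reached the order and no further, called unclassified Lactobacillales here, gave 18 features and 4.96% of the counts.

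The study profiled male mice that were not exposed or were given polyethylene terephthalate nanoplastic, a common polyester shortened to PET, by oral gavage. The dose was 0.5 mg a day in 0.1 ml for 28 days, and the design text gives 12 mice, 6 in each arm. Stool after 1 week and stool, colon tissue, lung tissue and oral swabs at day 28 each gave 6 control and 6 PET libraries, 60 in all. The labels name neither strain nor age, nor what the control mice received. Each library carries a number of its own, so libraries of different sites could not be matched by mouse and p-values measure only the spread between the libraries of a group.

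Lactic acid bacteria are Gram-positive fermenters that turn sugars into lactic acid. Streptococci grow on teeth, tongue and mucosa, where adhesins hold them to saliva-coated surfaces and to other bacteria; Streptococcus danieliae is a species named from a mouse isolate. Gemella, Granulicatella and Abiotrophia are fastidious cocci of the mouth and upper airways, enterococci are cocci of the gut, and Lactococcus, Leuconostoc and Weissella are best known from milk, plants and fermented food.

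Library totals ran from 10543 to 1083575 counts, lowest in lung (10543 to 326834), and 99.3% of all counts were prokaryote. The prokaryote part was smaller in some tissue libraries. It was 14464 of 21912 counts in lung control library 6 and 19802 of 24635 in lung PET library 5. In colon PET library 1 it was 111478 of 120723, and in colon control library 2 175152 of 185189. Short lists of genera were used to look at the oral swabs and the colon. Streptococcus, itself a member, Muribacter, Rodentibacter and Staphylococcus together made up 40.9% to 95.5% of the oral swab libraries. The mucus genera Helicobacter, Mucispirillum and Akkermansia made up 12.5% to 96.5% of the colon libraries. A wider list of mouth genera, given with the comparison of sites below, did not set the swabs above lung. Stool is given without such a value, and lung had no site list of its own. One extraction kit served stool and swabs and another the 2 tissues, so kit and site cannot be told apart in comparisons between them. The library index numbers in the labels run from S602 to S657, and 4 further libraries stand apart at S665 to S668 (stool control library 6, stool PET library 6, and lung control libraries 5 and 6). Shares below are percentages of the prokaryote counts of a library.

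Streptococcus was the member that led the mouth. In the 6 control oral swabs it ranged from 10.1% through a median of 32.1% to 70.0%, and in the 6 PET swabs from 4.30% through 25.7% to 45.8%. The arms overlapped over most of their range. The mean was 34.02% ± 20.5 (SD, n = 6) in control and 26.5% ± 16.7 in PET swabs. The fitted PET over control difference was 0.42 ± 0.95 on the log2 scale (standard error; edgeR quasi-likelihood test with TMM normalization, adjusted p = 0.981), and its sign turned with library totals in place of TMM (-0.36), with centred log ratios (-0.41) and in the exact permutation test (-0.50). Unclassified Lactobacillales were found in 12 of 12 oral swabs, at 0.406% to 3.02% in control and 0.401% to 2.14% in PET swabs (log2 0.39 ± 0.89, adjusted p = 0.981; -0.23 with library totals). Enterococcus was found in 4 control and 4 PET swabs, at up to 0.0426% and 0.159% (log2 0.04 ± 1.57). The median fitted difference of the 4 member genera tested was 0.41, beside -0.18 over all genera tested. Of 4 member genera and 18 member features tested in oral swabs, edgeR called 0 at an adjusted p under 0.05, with a background of 0% of 176 genera and 0% of 460 features. At an unadjusted p under 0.05 it placed 0 of the genera (5.11% of all genera) and 1 of the features (6.3% of all features), the latter named Streptococcus halotolerans, and DESeq2, limma and the exact permutation test called 0 member genera.

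**Figure D1:**
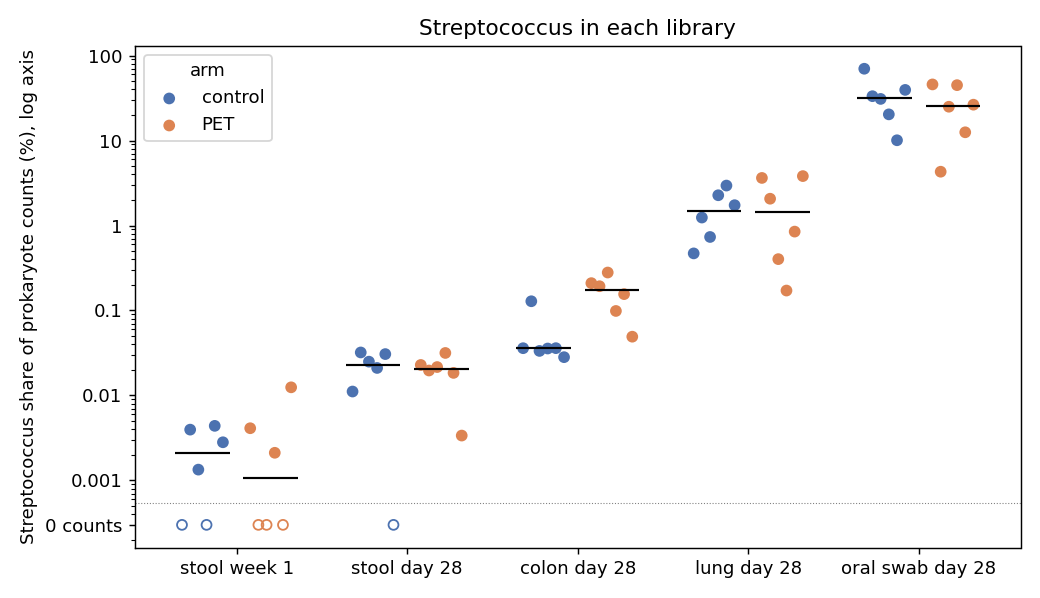
Share of Streptococcus in each of the 60 libraries, as a percentage of prokaryote counts on a log axis, by site, time and arm. Each point is a library, black lines are group medians, and open points on the lowest line had 0 counts. Oral swabs sit at 4.30% to 70.0%, lung at 0.172% to 3.82%, colon at 0.0282% to 0.280% and stool at or below 0.0321%.

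A few features made up the oral streptococci. The first feature (identifier bc870ddc91fc262ea74d6247a1d07076, S. danieliae, classifier confidence 0.95) held 779404 counts in 48 libraries. Its share of the oral community ran from 5.45% through a median of 22.3% to 58.1% in control swabs and from 1.15% through 17.3% to 38.5% in PET swabs. The second feature (2a642ffe17545238bddd784a3a2866b0, also S. danieliae, confidence 0.990) held 162859 counts, all of them in 11 oral swabs. The third (4c366a77ac64856238bc094f75c66ed8) has a genus name only and held 70926 counts, with 0.231% to 3.21% of control and 0.352% to 5.68% of PET swab counts. S. danieliae features together made up 91.7% of the Streptococcus counts of the mouth.

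The first and the second feature kept a narrow ratio in most swabs. The first had 5.31 to 5.69 times the counts of the second in 8 of the 11 swabs that held both. The ratio was lower in control library 3 (3.32), control library 5 (4.73) and PET library 6 (2.51). PET library 2 held 0 counts of the second feature beside 4570 of the first, and there the third feature led with 54.3% of the Streptococcus counts. This swab also stood apart in its other bacteria, with the 4 mouth genera at 40.9% (72.6% to 95.5% in the other swabs) and gut anaerobes at 32.8% (0.745% to 12.98%), whose part in these values was not tested. A further S. danieliae feature was found in 3 libraries only: control library 3 (5560 counts), control library 5 (4380) and PET library 2 (2952). The libraries that departed from the common mix of features thus came from both arms. The S. halotolerans feature was present in 12 of 12 swabs at 0.00388% to 0.329%, apart from control library 2, where it reached 3.10%; the fitted PET over control difference was -3.37 ± 1.29 on the log2 scale (edgeR, adjusted p = 0.443).

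**Figure D2:**
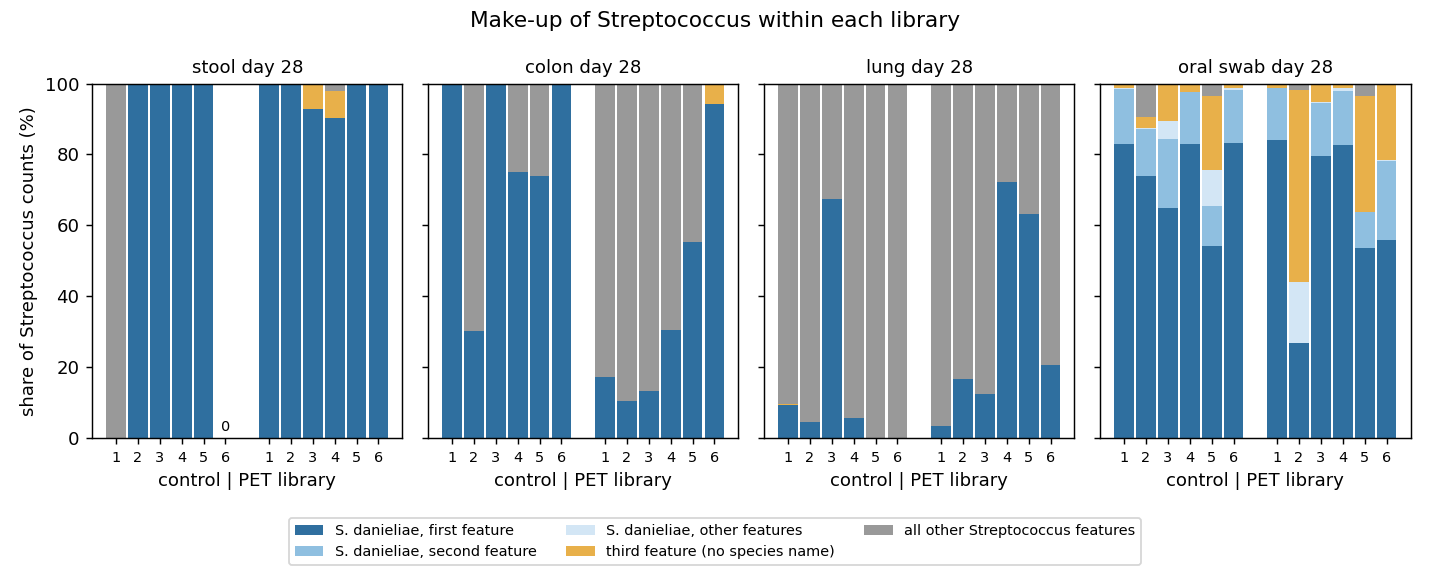
Make-up of the Streptococcus counts of each day 28 library, in percent, with control libraries on the left and PET libraries on the right of each panel. Oral swabs are mostly the first and the second S. danieliae feature, stool is mostly the first alone, and lung is mostly features other than the leading 3; a 0 marks the stool library without Streptococcus counts.

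Outside the mouth the first feature was found and the second was not. The first feature had 69 counts in week 1 stool, 966 in day 28 stool, 620 in colon and 1050 in lung, and the second had 0 at each of these. In the mouth the second made up 17.3% of both, while a count of 0 allows up to 4.35% of both in week 1 stool, 0.311% in day 28 stool, 0.484% in colon and 0.286% in lung. These limits, at 3 counts, cover counting error only, since counts of PCR products are not counts of independent molecules.

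The first feature was found at low counts in nearly all day 28 libraries outside the mouth. Of the 32 day 28 libraries with index S614 to S645, 31 held it, at 22 to 151 counts. In lung the counts above 0 spanned 5.29-fold and the totals of the same libraries 31.9-fold; in stool counts spanned 2.70-fold and totals 2.16-fold, and in colon 5.86-fold and 4.99-fold. The median was 98 counts in stool, 38 in colon and 112.5 in lung. As a share it thus ran from 0.0203% to 0.783% in the colon and lung libraries of that index range, and was highest in the shallowest library, PET lung library 6. The 12 week 1 stool libraries, with index S602 to S613, held 0 to 20 counts and 4 of them any. The 4 libraries set apart by index held 0, 11, 0 and 0 counts, although stool control library 6 and stool PET library 6 were as deep as the other stool libraries (324168 and 326075 prokaryote counts).

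Muribacter, a relative of Pasteurella and the other main genus of the oral swabs, was present in the same libraries. It had counts in 31 of the 32 libraries with index S614 to S645, at 20 to 340, and they were the 31 that held the first S. danieliae feature; stool control library 1 lacked both. Week 1 stool had 0 Muribacter counts in 12 of 12 libraries, and the 4 set apart had 0 in 3 and 11 in lung control library 5. Apart from these 4, each site and time is a run of neighbouring indices, so that index cannot be told apart there from site and time. The part of the index in these counts was not tested.

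**Figure D3:**
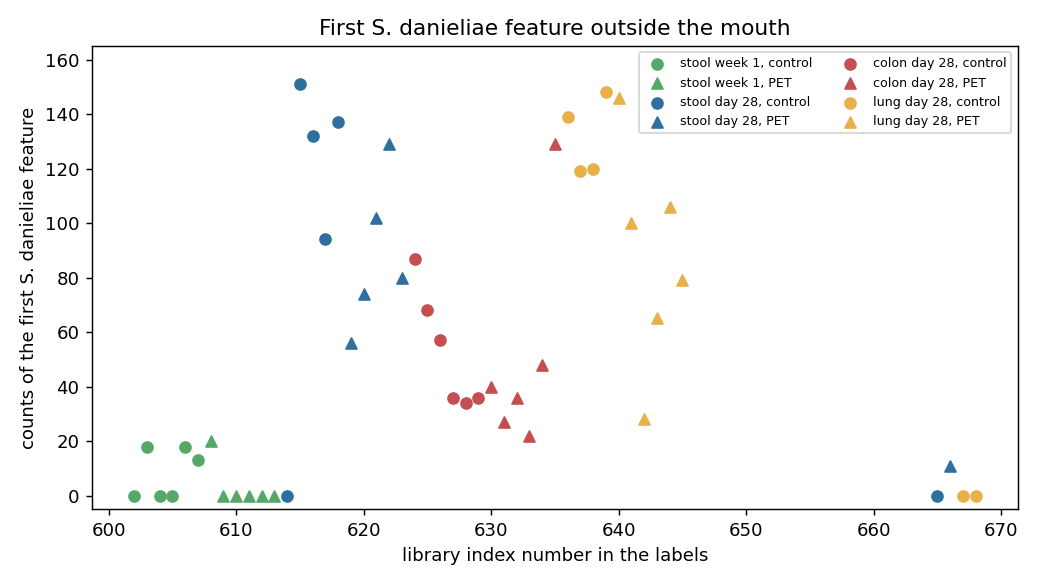
Counts of the first S. danieliae feature in the 48 libraries outside the mouth, against the library index number in the labels. Colours are sites and times, circles control and triangles PET libraries; counts are 0 to 20 in week 1 stool, 22 to 151 in 31 of the 32 libraries from S614 to S645, and 0 to 11 in the 4 libraries from S665 to S668.

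In stool, members were rare. Streptococcus was detected in 7 of 12 week 1 libraries, at 0.00134% to 0.0125% where present, and in 11 of 12 day 28 libraries. Week 1 control library 1, at 0 counts, was shallow with 16513 prokaryote counts. There 3 counts would be 0.0182%, above each week 1 share, so its 0 is no measure of absence. At day 28 control stool ran from 0 through a median of 0.0230% to 0.0321% and PET stool from 0.00337% through 0.0206% to 0.0316%. The arms overlapped at both times (PET over control log2 0.14 ± 1.46 at week 1 and -0.04 ± 1.04 at day 28, adjusted p = 0.975 and 0.991), with signs that turned under DESeq2 (-0.19 and 0.07). Enterococcus was found in 4 of 6 libraries of each stool group, at up to 0.00720%, and unclassified Lactobacillales in 3 of 24 stool libraries with 6 to 8 counts each. Of the 16 member genera, 13 had 0 counts in stool at each time. edgeR called 0 of 2 tested member genera at week 1 and 0 of 3 at day 28, on a background of 0% of the genera at both times; 0 member genera were at an unadjusted p under 0.05, and DESeq2, limma and the exact permutation test called 0. The members' median difference was 0.15 at week 1 and -0.54 at day 28, beside 0.43 and -0.04 over all genera.

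From week 1 to day 28 the fitted share of Streptococcus in stool was higher by 2.83 ± 1.45 on the log2 scale in control and by 2.67 ± 1.43 in PET mice (edgeR, adjusted p = 0.284 and 0.201), so that neither change passed the threshold. DESeq2 gave 3.38 with an adjusted p of 0.0308 in the PET arm. Most of the day 28 counts were those of the first S. danieliae feature described above: it made up 966 of 1055 Streptococcus counts at day 28 and 69 of 225 at week 1. edgeR called 0 of 3 tested members in either arm and 0 for the change of the PET difference from week 1 to day 28, on a background of 0% of 145 genera; 1 member, unclassified Lactobacillales in control, was at an unadjusted p under 0.05, as were 18.6% of all genera there.

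The colon was the only site where edgeR called member genera between the arms. Gemella was found in PET colon libraries 1, 2 and 3, with 54, 21 and 45 counts (0.0484%, 0.0158% and 0.0465%), and in 0 of 6 control libraries. Unclassified Lactobacillales were found in PET libraries 1, 3 and 5, with 16, 13 and 10 counts, and in 0 control libraries. edgeR called both higher in PET (Gemella log2 8.41 ± 2.71, adjusted p = 0.0267; unclassified Lactobacillales 6.76 ± 2.43, adjusted p = 0.0435). Each passed the filter of counts in 3 libraries through the PET arm alone, so these 2 calls among 4 member genera tested are a description and are not support for a difference of the members as a group; 15.8% of all genera tested were called, or 13.7% counting the higher ones alone. Fitted differences of genera without control counts depend on the prior count. Set against a floor of 3 counts over the control group, the pooled PET share without library 1 was at least 33.7-fold higher for Gemella. For unclassified Lactobacillales it was at least 11.8-fold higher. Such bounds, here and below, cover counting error only and leave out the spread between libraries. They come from the same PET libraries as the calls and are a description too. Of the 16 member genera, 7 had counts in the colon: 4 were tested, 3 failed the filter and the other 9 had 0 counts.

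Both calls lay near the threshold. The Gemella call was lost without control library 1 (adjusted p = 0.107), 2 (0.0522), 3 (0.0517) or 4 (0.0543), and with DESeq2 (0.0765), limma on centred log ratios (0.456) and the exact permutation test (0.174). Each of the 4 control libraries held 0 Gemella counts, and the fitted difference stayed at 8.21 to 8.75 over the 9 fits without 1 library. Unclassified Lactobacillales kept theirs in 2 of the 9 fits without 1 library, those without PET library 4 or 6, with fitted differences of 6.59 to 7.12 and adjusted p of 0.0340 to 0.123 over the 9. Without any of the 3 PET libraries that held it, each genus fell under the filter of counts in 3 libraries and was not tested.

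The same PET libraries held other members that control colon lacked. A family of uncultured bacteria within the order, known by a clone code in place of a name, had 22 and 45 counts in PET libraries 2 and 3, at least 29.1-fold above the control floor and at least 10.99-fold without library 3. Aerococcus, a genus of air, skin and urine, had 22 and 8 counts in PET libraries 1 and 3 (at least 13.05-fold, and at least 4.09-fold without library 1). Both had counts in 2 libraries and were not tested. Leuconostoc had 2 counts in PET library 2. Enterococcus went the other way in its sums, with 58 and 6 counts in control libraries 2 and 3 and 9, 4 and 4 in PET libraries 1, 2 and 6 (log2 -0.50 ± 1.88, adjusted p = 0.931).

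Colon Streptococcus held a shared base and a part that varied. The first S. danieliae feature lay at 0.0266% to 0.0388% in control and 0.0203% to 0.0860% in PET libraries (log2 0.00 ± 2.28, edgeR over features, adjusted p = 0.999). Streptococcus features other than the first had 0, 157, 0, 12, 12 and 0 counts in control libraries 1 to 6 and 194, 230, 235, 50, 39 and 8 in PET libraries 1 to 6. As a share this was 0.0180% ± 0.0354 (SD, n = 6) in control and 0.122% ± 0.0890 in PET; the arms overlapped, with control library 2 above PET libraries 4, 5 and 6, and control libraries 4 and 5 above PET library 6. This split of the genus was made after the values were seen and was given no test. All Streptococcus together ran from 0.0282% to 0.128% in control and from 0.0492% to 0.280% in PET colon (log2 1.34 ± 1.32, edgeR, adjusted p = 0.686). Of 36 Streptococcus features in the colon, 27 (75%) were found in PET libraries only, 3 in control only and 6 in both. Of the 1725 colon features outside the members, 47.7% were found in PET only, 20.6% in control only and 31.8% in both; the difference between these splits was not tested. Of the 4 member features that passed the filter, edgeR called 0, against a background of 2.35% of 468 features, and 0 were at an unadjusted p under 0.05.

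**Figure D4:**
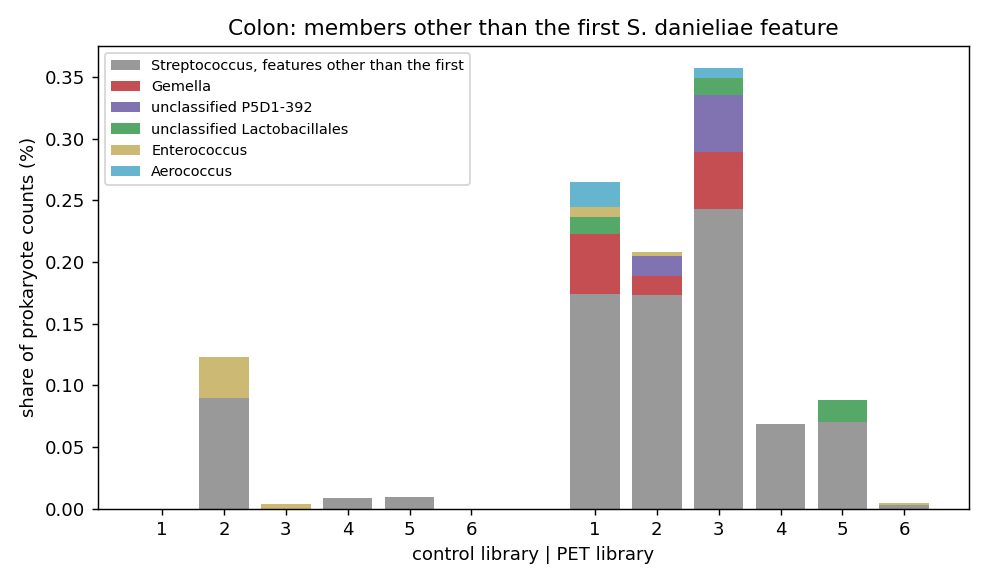
Share of prokaryote counts held by colon members other than the first S. danieliae feature, stacked by genus, in the 6 control and 6 PET libraries. PET libraries 1, 2 and 3 hold Gemella, and control library 2 is the highest control library; Leuconostoc, with 2 counts, is not drawn.

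Other lists of bacteria were set beside these members in the colon. Of an 18-genus list of mouth bacteria without members, 16 had counts in PET colon and 7 in control colon, with summed shares of 0.102% to 2.61% and 0.0439% to 1.67%. Of its 13 tested genera 8 were called higher and 0 lower, beside 13.7% higher over all genera. Those without control counts passed the filter through the PET arm alone, so these calls are a description. Over all genera, 19 higher calls became 9 with DESeq2 and 1 with limma. Of the 4 skin genera Cutibacterium, Corynebacterium, Staphylococcus and Micrococcus, 4 had counts in PET colon (0% to 0.303% in sum) and 1 in control colon (0% to 0.00669%). Of 15 genera common in reagents, 8 had counts in PET (0.255% to 3.82%) and 6 in control (0.185% to 5.15%). The part of these bacteria in the result was not tested. Lactobacillus, the single genus of Lactobacillaceae, was called lower in PET (log2 -4.13), with a mean of 8.13% in control, 1.62% in control without library 2, which held 40.7%, and 0.257% in PET. Its arms overlapped, at 0.155% to 40.7% in control and 0.0931% to 0.595% in PET. Without library 2 the highest control value was 6.18%.

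Some of the colon features were also seen at other sites. Apart from the first feature, members had 245 counts in control and 1031 in PET colon. In control, 95.5% of these counts were in features also found in lung and 47.3% in features also found in oral swabs. Control library 2 held 215 of the 245; the other 5 control libraries held 30, of which 30 were in features also in lung and 24 in features also in oral swabs. In PET, the shares were 40.5% and 36.1%, and 57.2% of the counts (31 features) were in features found at no other site or time. The difference between the arms was not tested. The leading feature was shared in PET library 1 and PET library 2: a Streptococcus without a species name held 0.0547% and 0.0879% there and 0.00783% in control library 5, and had counts in 8 of 12 lung libraries. This Streptococcus feature was also found in 2 control oral swabs, with 183 counts, and in 3 PET oral swabs, with 86. The S. salivarius feature led control library 2 with 91 counts.

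Lung held the most member genera and the most member features. Members had counts of 14 genera and 172 features in lung, against 13 and 72 in oral swabs and 7 and 49 in colon. The other prokaryote features were also most numerous in lung, at 3435 against 1825 and 1725. Streptococcus lay at 0.470% through a median of 1.49% to 2.95% in control and at 0.172% through 1.46% to 3.82% in PET lung. The arms overlapped throughout (log2 -0.09 ± 1.12, edgeR, adjusted p = 0.999), and the sign turned with library totals (0.22) and without the 2 control libraries set apart by index (0.18).

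S. danieliae made up 6.40% of the pooled lung Streptococcus counts. By library its share ran from 0% through a median of 10.8% to 72.2%, beside 43.9% through 92.1% to 98.9% in oral swabs. The lung range thus overlapped that of the mouth, with control library 3 at 67.4%, PET library 4 at 72.2% and PET library 5 at 63.1%. Features also seen in oral swabs held 51.5% of them, 9 of 96 features, and features found in a single library held 40.8%. The S. salivarius feature (409f711b59152d57926cf444c5577087), whose species is a commensal of the human tongue, was found in 9 lung libraries. It had 1739 counts in control library 2 and 1434 in control library 5, 29 to 186 in control libraries 1, 3 and 4, and 22 to 81 in 4 PET libraries (log2 -2.45 ± 1.93, edgeR over features, adjusted p = 0.808). This S. salivarius feature was also found in 1 control oral swab, with 31 counts, and in 3 PET oral swabs, with 74. The unnamed feature that led PET colon libraries 1 and 2 was found in 5 control lung libraries at 86 to 531 counts and in 3 PET lung libraries at 71 to 1073 (log2 0.81 ± 1.88, adjusted p = 0.975). Some other species known from the human mouth appeared in lung and not in the swabs: S. sanguinis with 341 counts in 4 libraries, S. anginosus with 222 in 3, and S. gordonii and S. sobrinus with 21 and 16 in 1 each. S. mutans, known for tooth decay, had 182 counts in 8 lung libraries, 46 in colon and 13 in week 1 stool, and 0 in oral swabs. A lung feature found in 1 library carried the species label Scapharca broughtonii, the name of a clam, beneath the genus Streptococcus.

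The fastidious cocci of mouth and airways had most of their counts in lung. Gemella had counts in 3 control lung libraries (0.0508%, 0.649% and 0.0220%, in libraries 2, 4 and 5) and 3 PET lung libraries (0.484%, 0.203% and 0.179%, in libraries 1, 2 and 6; log2 0.02 ± 1.98). Granulicatella was found in 4 control and 3 PET libraries at 9 to 161 counts (log2 0.21 ± 1.99). Abiotrophia was found in lung alone, in control libraries 1, 4 and 5 with 63, 549 and 16 counts and PET library 6 with 10 (log2 -3.31 ± 2.38). The family known by a clone code had 1646 lung counts in 5 libraries, in 17 features that each occurred in 1 library (log2 -0.28 ± 2.05). Aerococcus had counts in 3 control libraries (0.0423%, 0.0865% and 0.0583%) and 1 PET library (0.0228%; log2 -2.44 ± 2.24). Enterococcus was in 6 control libraries at 0.0115% to 0.313% and in 4 PET libraries at 0.0124% to 0.0808% (log2 -2.34 ± 1.82, adjusted p = 0.927). None of these 6 differences passed the threshold, with adjusted p from 0.832 to 0.999.

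Outside the lung Lactococcus had 2 counts, in oral control library 4, and within the lung it was found in PET libraries only. It had 0 counts in 6 control libraries and 8, 53, 29 and 13 counts in PET libraries 2, 3, 4 and 5 (log2 7.89 ± 2.47, edgeR, unadjusted p = 0.00415, adjusted p = 0.210). It passed the filter through the PET arm alone, so these values are a description. The pooled PET share was at least 94.8-fold above the floor of the control group, and at least 57.1-fold without library 3. DESeq2 alone among the tools called it (adjusted p = 0.0434), and over 9 alternatives the adjusted p ran to 0.417. Its counts came from L. lactis (67 counts) and L. raffinolactis (36 counts), each in 3 libraries, and both species are known from milk. Leuconostoc had 36, 35 and 11 counts in PET libraries 2, 3 and 5 and 12 in control library 1 (log2 4.65 ± 2.36, adjusted p = 0.550). Both genera are therefore found together in PET libraries 2, 3 and 5.

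In all, edgeR called 0 of 10 tested member genera in lung, on a background of 0% of 233 genera, with 1 at an unadjusted p under 0.05 (8.58% of all genera); their median difference was -0.04, beside -0.09 over all genera. It called 0 of 18 member features, on a background of 0% of 454, with 3 at an unadjusted p under 0.05 (11.9% of all features): the Lactococcus species, found in PET lung only, and an Aerococcus feature found in control lung only. limma and the exact permutation test called 0 member genera, and DESeq2 called Lactococcus. The lung libraries also held bacteria of other sites. The 8 gut anaerobe families made up 24.3% to 78.0% of control and 14.98% to 46.5% of PET lung, and the 15 reagent genera 0.903% to 29.1% and 6.18% to 29.8%, with 9 and 8 of them present. The mouth list made up 1.18% to 45.3% and 0.853% to 48.7%, with 17 and 16 of 18 genera present. The skin genera made up 0.0526% to 4.22% and 0.433% to 5.12%, with 4 of 4 present in both arms. The colon mucus genera made up 0.1198% to 9.45% and 0.376% to 53.0%, with 3 of 3 present in both arms; the highest value, in PET library 4, lies within the colon range. The part of these bacteria in the lung values was not tested.

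**Figure D5:**
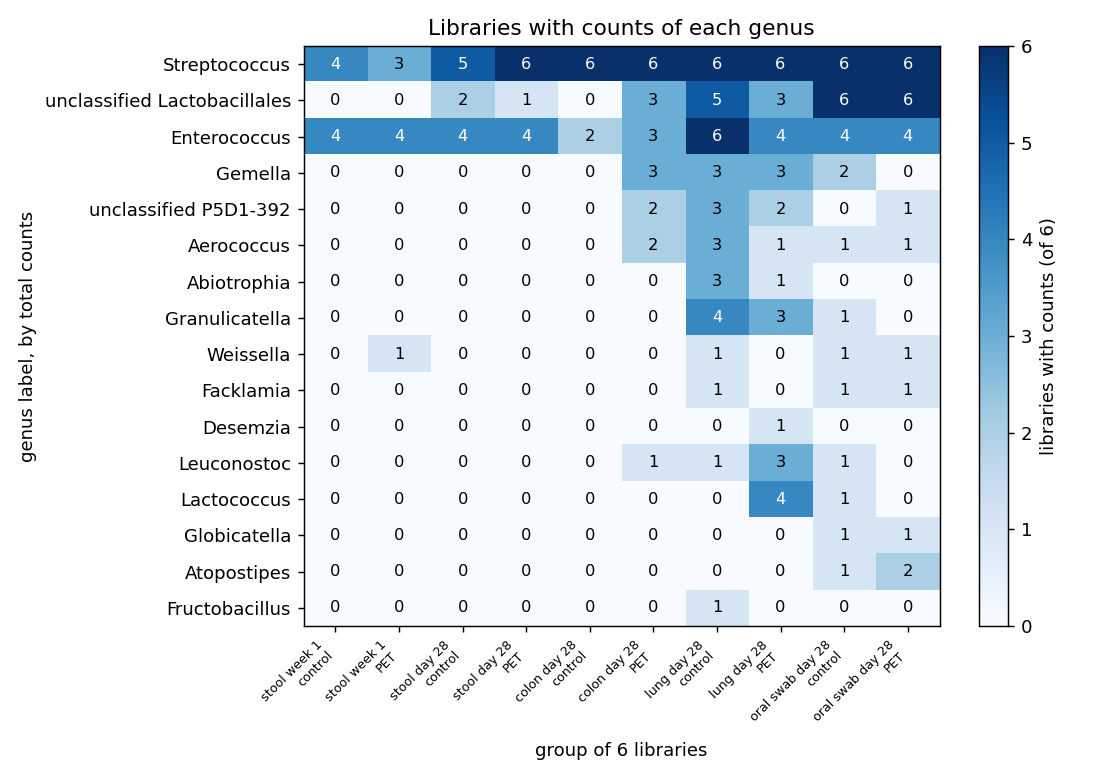
Number of libraries, of 6 in each group, in which each of the 16 member genera had counts, with genera ordered by their total. Streptococcus has counts in every group, Gemella in 3 PET and 0 control colon libraries, and lung columns have the most genera.

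Comparison of the sites over both arms set Streptococcus apart in the mouth. Its shares did not overlap between oral swabs and stool, lung or colon at day 28, where 11.5%, 0.639% and 1.6% of 313 genera parted in the same way, nor between lung and stool, where 10.5% did. They overlapped between lung and colon and between colon and stool, where 0.639% and 1.28% of genera parted. Its fitted differences were 13.5 ± 0.94 (oral swab over stool), 6.80 ± 0.80 (over lung) and 9.63 ± 0.90 (over colon) on the log2 scale, against a median of 2.82, -2.12 and 0.26 over all 313 genera. Lung over stool was 6.71 ± 0.79 against a median of 6.07, lung over colon 2.82 ± 0.66 against 3.23, and colon over stool 3.88 ± 0.69 against 1.45. The highest adjusted p of these 6 was 0.000711; lung over colon was lost with DESeq2 (1.09, adjusted p = 0.167) and in PET libraries only (1.53, 0.227), and colon over stool in control libraries only (2.88, 0.0964). The mouth values thus lay far from the median genus, and the lung values near it. Those medians also take in genera with 0 counts at both sites, such as Abiotrophia in colon over stool, fitted at log2 0. The sizes of the oral swab differences of Streptococcus depended on the scaling by more than their standard errors show. With library totals in place of TMM they were log2 10.56 over stool, 4.15 over lung and 8.38 over colon. With DESeq2 oral swab over lung was log2 8.86. Unclassified Lactobacillales also parted without overlap between oral swabs and stool and between oral swabs and colon (log2 14.5 ± 1.75 and 13.1 ± 1.77).

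Several of the smaller genera had their highest pooled shares in lung. Gemella was at 0.144% of pooled lung counts and 0.00608% of oral swab counts, Granulicatella at 0.0463% and 0.00170%, the family known by a clone code at 0.150% and 0.000274%, and Abiotrophia at 0.0583% and 0. All 4 were called lower in oral swabs than in lung (log2 -7.30, -6.77 and -9.58 for the first 3), while Streptococcus, unclassified Lactobacillales and Atopostipes were called higher. Abiotrophia, with counts in 4 lung libraries and 0 swabs, and Atopostipes, with 47 counts in 3 swabs and 0 in lung, passed the filter through 1 site alone, so their calls are a description. Against stool, where they had 0 counts, the pooled lung share of Gemella was at least 2476-fold and that of Granulicatella at least 797-fold above the floor. In pooled counts Gemella in lung was 20.7 times its share in colon. The ratio was 11.9 without lung control library 4 and 14.5 without lung PET library 1. These libraries held 768 and 595 of the 1575 lung Gemella counts, and 737 and 610 of the 1646 of the family known by a clone code. Enterococcus was the most evenly spread, with pooled shares of 0.0515% in lung, 0.0270% in oral swabs, 0.00469% in colon and 0.00194% in day 28 stool. Some oral values rested on single libraries: oral control library 5 held 216 of 222 oral Gemella counts, 340 of 373 oral Aerococcus counts and 62 of 62 oral Granulicatella counts. Of 17 tested genera of the mouth list without members, edgeR called 10 lower and 2 higher in oral swabs than in lung (30.4% and 9.58% of all genera). It called 14 higher in lung than in colon (39%), 16 higher in oral swabs than in stool (38.3%) and 4 higher in oral swabs than in colon (9.58%), with 0 lower. These calls are a description too.

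Of 13 member genera tested across sites, the calls were 7 for oral swab over stool (background 49.5% of 313), 7 for oral swab over lung (39.9%), 4 for oral swab over colon (13.4%), 9 for lung over stool (70.9%), 8 for lung over colon (46%) and 1, Streptococcus, for colon over stool (22.7%). Genera with counts on 1 side only passed the filter through that side, so these counts are a description. Some genera with 0 counts in 1 arm had no usable standard error and could not be called. Lactococcus in lung over stool and Gemella in colon over stool were such fits, both at log2 4.68. Each had counts in PET libraries only at the first site and 0 in stool. A missing call is therefore no sign of equal shares. With PET libraries only, colon over stool gave 6 calls of 9 tested. Of the 7 calls in oral swab over lung, 3 were higher and 4 lower. Of all genera, 9.58% were higher there and 30.4% lower. With DESeq2 the split was 2 higher and 2 lower. In the other comparisons the called members were higher in the site named first, as were 38.3% of all genera for oral swab over stool, 9.58% for oral swab over colon, 58.1% for lung over stool, 39% for lung over colon and 19.2% for colon over stool. Weissella (290 counts in 4 libraries), Facklamia (160 in 3), Desemzia (1 lung library), Globicatella (64 in 2), Atopostipes (47 in 3) and Fructobacillus (7 in 1) were the 6 genera with counts in fewer than 3 libraries of any group.

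No member genus tested at any site or time had control and PET libraries that parted without overlap. Of all genera, 0.82% did at week 1 and, at day 28, 0% in stool, 0.719% in colon, 0.858% in lung and 0.568% in oral swabs. Most member features were seen in 1 library. Of the 267 features, 221 (82.8%) had counts in 1 library, against 73.5% of the other prokaryote features, and 3 were found at all 5 sites and times. Of the member features in lung, 149 (86.6%) were found at no other site or time, as were 52 (72.2%) of those in oral swabs and 33 (67.3%) of those in colon. Of the other prokaryote features, 74.8%, 43.8% and 30.6% were. Lung and oral swabs shared 15 features, which is 8.72% of those in lung and 20.8% of those in oral swabs; lung and colon shared 14 (8.14% and 28.6%). In each library, members covered 1 to 8 features in control and 3 to 21 in PET colon, 10 to 44 in control and 5 to 55 in PET lung, and 11 to 26 in control and 9 to 20 in PET oral swabs. The number of member genera per library was 1.33 ± 0.516 (SD, n = 6) in control and 3.33 ± 1.86 in PET colon, and 1.32 and 3.19 at an equal depth of 55824 counts. Over all genera the colon held 87.5 ± 22.7 in control and 117.8 ± 16.7 in PET libraries. In lung the members' number was 6.17 ± 2.04 and 5.17 ± 2.14, or 5.57 and 5.06 at an equal depth of 10083 counts, and in oral swabs 4.33 ± 1.37 and 3.83 ± 1.94.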

How the data were processed

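The libraries are 16S rRNA gene amplicons (regions V3 and V4) read from both ends over 300 bases, per the labels' protocols. The deposited table holds whole-number counts of each feature in each library, with no normalization by the authors. The deposited taxonomy gives each lineage a confidence as a fraction, with 0.704 as the lowest value of a member. Bowtie2, cutadapt and the build GRCm39 appear in the submitters' processing notes without version or role, and the sources used here do not name the denoiser, the classifier or its database.

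The 619 features without a taxonomy line and those outside the prokaryotes were left out. Counts were summed by genus and compared by edgeR 4.0.16 (quasi-likelihood F test, TMM, Benjamini-Hochberg over all genera, threshold 0.05), for genera with 10 counts and counts in 3 libraries of the fit; single features were tested likewise. Exposure was fitted at each site and time on 12 libraries, time on 24 stool libraries, and sites on 48 day 28 libraries. The scripts were tested on simulated data. Alternatives were TMMwsp, library totals, DESeq2 1.42.0, limma 3.58.1 on centred log ratios (0.5 added), exact permutation over 924 splits, other filters, family level and left-out libraries. A group at 0 was given a floor of 3 counts over the group. No 2 libraries held identical counts.

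Members and lists were chosen with earlier results of these data known. Genera with counts in 3 or more libraries of any group are given with values, the others by counts; single features are the 10 with the highest summed share and any past the threshold. Species, S. mutans among them, Lactococcus features and features leading a library were added after their values were seen.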

Additional observations from a re-analysis of the deposited data

Results flagged for a closer look

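Within groups of 6 libraries, the library farthest out was compared with its nearest neighbour by Dixon's gap over range. Of 22 groups of member genera with counts in at least 4 libraries, 3 held such a library; chance gives about 1 in 20. Colon control library 2 held 0.128% Streptococcus, with 0.0360% in the next control library (gap over range 0.922). Oral control library 3 held 0.0426% Enterococcus, with 0.0131% in the next (0.693). Oral PET library 2 held 0.159% Enterococcus, with 0.0343% in the next (0.784). This swab also held the most gut anaerobes (32.8%) and the least of the 4 mouth genera (40.9%) of the 12 swabs.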

How the results depend on the processing

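The 2 colon calls were 1 with TMMwsp, library totals or no filter, and 0 with DESeq2, limma, the exact permutation test or the stricter filter (50 counts, 6 libraries); they were 0 to 2 as single libraries were left out. Lung had 1 call with DESeq2, as had stool over time in PET. Of the site counts, colon over stool gave 4 with DESeq2, 0 in control and 6 in PET libraries only; lung over colon 4 with DESeq2 and 2 in PET only; oral swab over lung 4 with DESeq2 and 3 in control only; the stricter filter gave 2 for oral swab over colon and 4 for oral swab over stool. Sites were not refitted without single libraries.

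The sign of uncalled Streptococcus differences turned: at week 1 with DESeq2 (-0.19), limma (-1.50) and permutation (-1.11), and -1.31 to 0.58 without single libraries; in day 28 stool with DESeq2 (0.073), limma (0.70), permutation (0.75) and no filter (0.20), and -0.31 to 0.18; in lung with library totals (0.22) and without the libraries set apart by index (0.18), and -0.83 to 0.35; in oral swabs with library totals (-0.36), limma (-0.41) and permutation (-0.50), and -0.38 to 0.92. Unclassified Lactobacillales in oral swabs gave -0.23 with library totals, -0.026 by permutation and -0.40 to 1.04. Scaling moved the median of all genera by up to 0.74 in exposure and 2.15 in site comparisons. No paired analysis was possible because the labels number no replicates and tie no libraries to one animal. Lung depth, from 10083 prokaryote counts, limits detection of rare members, as does that of week 1 control stool library 1 (16513).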
